A study of Arabidopsis thaliana with 6 samples.

Results

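A group of 42 Arabidopsis thaliana genes, known on the array by a locus tag alone, had clear signal on all 3 arrays of old pods and low signal on all 3 arrays of young pods. They were chosen by these signals. A probe set had to name 1 nuclear gene by its tag, with no symbol. Its lowest deposited signal over the old-pod arrays had to be at least 80, its highest over the young-pod arrays at most 40, and the former at least 3 times the latter. The limits were met by 42 of the 11933 probe sets that name a gene in this way, which is 0.352%, out of 22746 probe sets in all. Because the signals chose the genes, their levels and differences between old and young pods are descriptions, with no test.

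The samples were 3 of old pods and 3 of young pods, all of the accession Col-1, grown on compost in a glasshouse at 19 °C under 24 hours of light. RNA was hybridised to Affymetrix ATH1 arrays, which read each transcript with a set of short probes. The labels give the same stage (the first silique has shattered) and the same tissue (siliques that are mature or senescing) to every sample, and only the titles separate old from young. Nothing says that replicates came from separate plants, so p-values measure only the spread between these samples, which may be technical. Whole pods hold valves, seeds and other tissues, so more cells of a type and more RNA per cell cannot be told apart in any value below.

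A silique is the seed pod of Arabidopsis. Its 2 valves enclose the developing seeds, and as the pod ages the valves senesce and dry while the embryos lay down storage proteins and become able to survive drying. Senescing plant tissue is also known to express many genes that act in responses to pathogens, such as receptor kinases, calcium-binding proteins, chitinases, lipases and enzymes of small-molecule synthesis.

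Names are scarce for these genes in the annotation used here. The reference annotation lists 41 of the 42, of which 40 are protein-coding and AT3G48650 is a transcribed pseudogene. AT5G05300 was not matched there. A name other than the tag and clone names stands beside only 1 of them, AT3G13610, which carries the synonym F6'H1. What the other genes are said to encode below is general background on each locus, given for 35 of the 42 genes, and no value rests on it. No role is given for AT1G15790, AT1G28400, AT1G76960, AT2G18690, AT3G13950, AT3G48650 or AT5G05300.

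**Figure D1:**
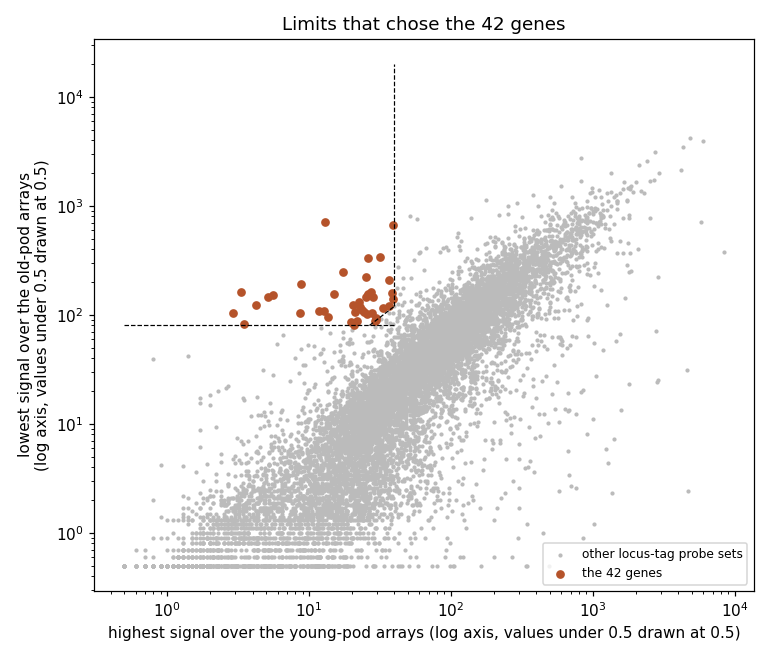
Each point is a probe set that names 1 gene by locus tag, placed by its highest signal over the 3 young-pod arrays (horizontal, log axis) and its lowest signal over the 3 old-pod arrays (vertical, log axis). Signals under 0.5 are drawn at 0.5. Dashed lines mark the limits at 40, at 80 and at a ratio of 3; the 42 genes fill the corner at the upper left, with no gap between them and the other probe sets at the limits.

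The plot of the limits shows no natural break at the edges of the set. AT3G07600 was the closest inside the old limit, with a lowest old signal of 81.1, followed by AT1G57630 at 81.7 and AT4G18250 at 86.0. Just outside it lay AT5G55420 at 75.3, AT1G09740 at 73.0 and AT4G02360 at 69.6, among 42 probe sets that failed this limit alone. At the young limit, AT5G55450, AT1G10340 and AT3G51440 had highest young signals of 39, 38.8 and 38.2. AT3G47540, AT5G52760 and AT1G23840 fell outside at 41.6, 42.3 and 44.0, among 30 that failed there alone. The lowest ratios inside were 3.02 for AT2G31990, 3.03 for AT1G08940 and 3.19 for AT3G13950, and the highest outside were 2.99 for AT1G02470, 2.89 for AT3G13910 and 2.84 for AT1G19900, of 10 that failed on the ratio alone.

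The word "on" says more than the arrays do. Detection calls were not used here, and a low signal of this kind carries no firm zero. Each array's 40th percentile of signal, 24.3 to 34.5 on old arrays and 32.5 to 36.5 on young arrays, was taken as the level under which a signal gives only a bound. For 36 of the 42 genes all 3 young signals lay under it, and for 6 genes 2 of 3 did. Every gene lay above it on every old array, which the limit of 80 requires. Folds are therefore given as "at least", from the mean log2 old signal against the mean young log2 value, in which a signal under the percentile counts as the percentile. For the 6 genes with 1 measured young array, the same calculation is given as a fold with low signals raised to the percentile.

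The old-pod arrays were not alike for these genes. Over all probe sets tested, old replicates 2 and 3 correlated at 0.951 (Pearson's r of log2 signals), and old replicate 1 correlated with them at 0.870 and 0.858. Young arrays correlated with each other at 0.862 to 0.934. Of the 42 genes, 7 had a signal on old replicate 1 at least 2 times that of the higher of the other two old arrays. The 7 ratios ran from 3.29 to 27.3, and none of the other 35 genes exceeded 1.12. This divides the 42 into 2 groups of genes that are described in turn. The division was made after the values had been seen, and no test was made on it. Over all probe sets with at least 80 on every old array, 105 of 6865 (1.53%) had such a ratio, and over those named by locus tag 39 of 2855 (1.37%), against 16.7% of the 42 genes.

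**Figure D2:**
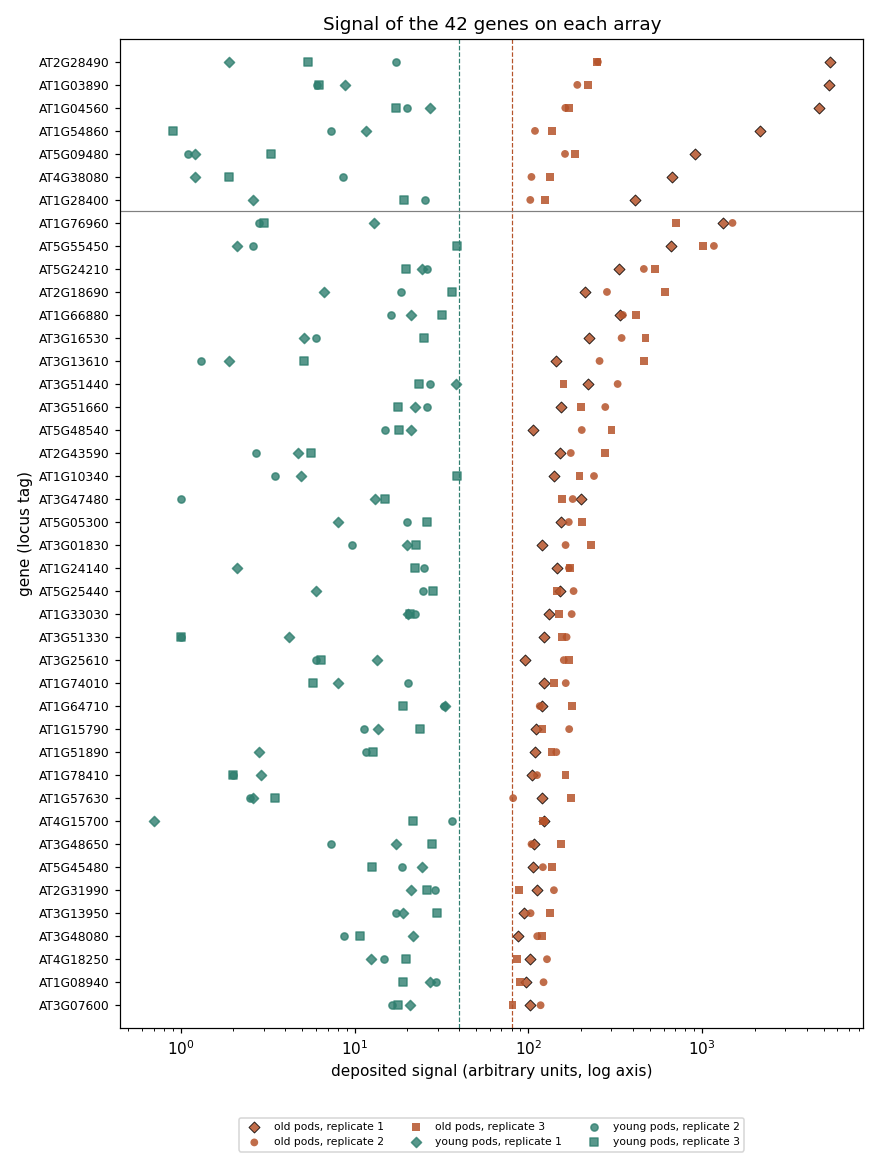
Signals of the 42 genes on each array (horizontal, log axis), with old pods in brown and young pods in green, and dashed lines at 40 and 80. The 7 genes above the grey line had old replicate 1 (outlined diamonds) at 410.5 to 5412.2 and the other old arrays at 102.5 to 250.9; for the 35 genes below it old replicate 1 was at most 1.12 times the higher of the other old arrays.

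The 7 genes with very high signal on old replicate 1 include relatives of seed storage proteins. AT1G03890 encodes a globulin of the cruciferin type, the main storage proteins of the Arabidopsis seed. Its signal was 5380.3, 191.1 and 220.2 in old pods and 8.8, 6.1 and 6.2 in young pods. AT2G28490 encodes a cupin, the fold that cruciferin and vicilin storage proteins share, and had 5412.2, 250.9 and 247.3 in old pods and 1.9, 17.4 and 5.4 in young pods. These were the highest mean old signals of the set, at 1970 ± 2981 for AT2G28490 and 1931 ± 2988 for AT1G03890 (SD, n = 3 arrays), so the spread was larger than the mean. AT2G28490 was at least 20.3-fold higher in old pods, or at least 7.28-fold without old replicate 1. AT1G03890 was at least 17.8-fold higher, or at least 6.00-fold without that array.

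AT1G04560, which encodes a membrane protein of the AWPM-19 family, followed the same course. It had 4682.9, 163.0 and 171.8 in old pods and 27.3, 19.9 and 17.3 in young pods. Its old replicate 1 was 28.0 times the mean of the other two old arrays, the highest such ratio among the 42. The spread of its log2 signal among old arrays was 2.78 (SD, n = 3), also the highest. AT1G54860, which encodes a protein anchored to the membrane by a lipid (GPI), had 2143.3, 109.1 and 137.2 in old pods and 11.7, 7.3 and 0.9 in young pods. On old replicate 1 these 2 genes were far above every other array, while old replicates 2 and 3 lay close to each other.

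Both hydroxyproline-rich proteins of the set, a class that includes many cell wall proteins, belonged here as well. AT5G09480 had 910.1, 162.4 and 185.8 in old pods and 1.2, 1.1 and 3.3 in young pods. AT4G38080 had 668.7, 104.1 and 132.7 in old pods and 1.2, 8.6 and 1.9 in young pods. Old replicate 1 was again the high array, by 5.23 times the mean of the other two for AT5G09480 and 5.65 times for AT4G38080, less than for the storage protein relatives. AT1G28400 completed the group, with 410.5, 102.5 and 124.7 in old pods and 2.6, 25.5 and 19.3 in young pods. On old replicates 2 and 3 the 7 genes lay between 102.5 and 250.9, and their highest young signal was 27.3, a separation that the limits require. Without old replicate 1 the bounds ranged from at least 3.31-fold for AT1G28400 to at least 7.28-fold for AT2G28490.

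**Figure D3:**
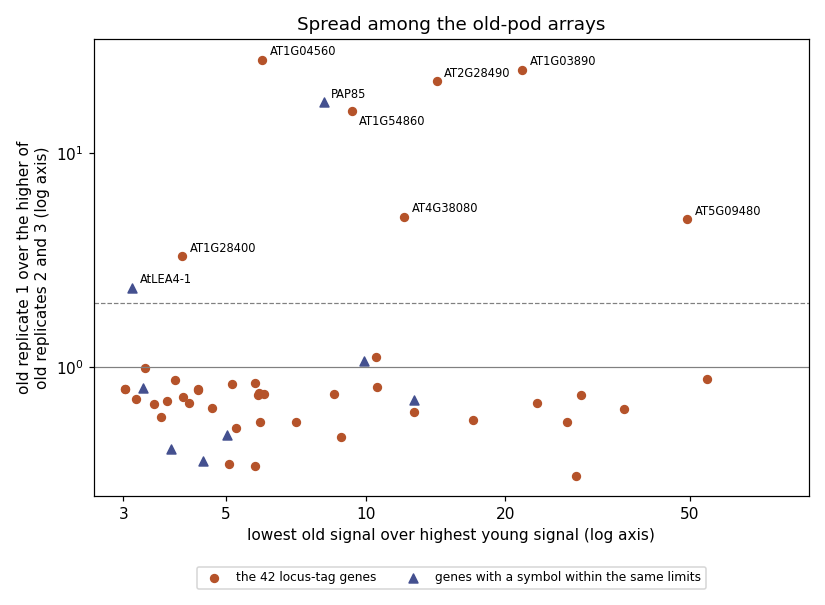
For each gene, the signal on old replicate 1 divided by the higher of old replicates 2 and 3 (vertical, log axis) against the lowest old signal divided by the highest young signal (horizontal, log axis), for the 42 genes (circles) and 8 genes with a symbol within the same limits (triangles). Above the dashed line at 2 stand 7 of the 42 genes and 2 of the 8, PAP85 and AtLEA4-1; the remaining 35 and 6 genes lie between 0.312 and 1.12.

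Seed markers moved with this group of genes on the same array. Of 14 genes on the list for the embryo and seed storage, 2 had a named probe set. PAP85, a vicilin-like storage protein that also meets the limits, had 3700.8, 214.9 and 210.1 in old pods and 25.9, 14.9 and 15.8 in young pods. OLEO3, an oleosin that coats seed oil bodies, had 2218.5, 178.7 and 262.6 in old pods and 1099.3, 536.4 and 158.4 in young pods. The 2 summed to 5919.3, 393.6 and 472.7 on the old arrays, against 174.2 to 1125.2 on the young arrays, and neither was at 0. PAP85 and the 7 genes were low on all young arrays, while OLEO3 was not: OLEO3 was highest in old replicate 1 and spread from low to high in both groups, with a log2 fold change of 0.05 (SE 1.00, limma adjusted p = 0.979).

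Of the 4 seed coat genes listed, BAN, the anthocyanidin reductase of the seed coat, had a probe set with a name. Its signal was 46.8, 8.2 and 10.7 in old pods and 1657.0, 1289.1 and 2714.7 in young pods. Of 8 genes listed for the zone where the pod wall opens, 3 had a named probe set, with sums of 1502.5 to 1849.8 in old pods and 582.3 to 965.2 in young pods. The higher sums in old pods came from ADPG1. ADPG1, a polygalacturonase that acts where the pod splits, had 1208.3, 1248.2 and 901.1 in old pods and 76.7, 102.2 and 45.1 in young pods. ALC, a regulator of that zone, was at 411.7 to 522.3 in old pods and 484.2 to 786.4 in young pods. SPT, also on that list, was at 79.3 to 115.5 in old pods and 53 to 102.1 in young pods. By limma, ADPG1 passed the threshold (adjusted p = 0.000387), while ALC (adjusted p = 0.517) and SPT (adjusted p = 0.555) did not. ADPG1 did not set old replicate 1 apart from the other old arrays, unlike the storage protein. The root marker PYK10 was at 10.1 to 18.2 in old pods and 15 to 35.3 in young pods, and the pollen and petal lists were without a named probe set. The part of seed content in the high signals of old replicate 1 was not tested.

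**Figure D4:**
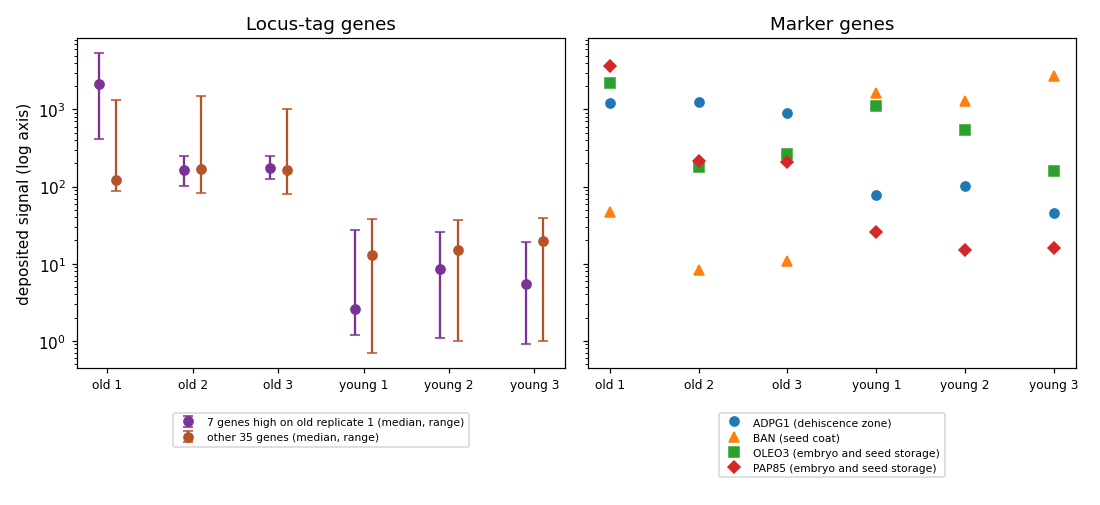
Left, the median and range of the signals on each array for the 7 genes high on old replicate 1 and for the other 35 genes; right, the signals of 4 marker genes (log axis, arrays of old pods to the left of young pods). The median of the 7 genes was 2143.3 on old replicate 1 and 162.4 and 171.8 on the other old arrays, that of the 35 genes was 122.5, 170.7 and 163.4, and PAP85 and OLEO3 were likewise highest on old replicate 1.

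The other 35 genes did not have old replicate 1 far above the other old arrays, although some were uneven, with F6'H1 (AT3G13610), AT2G18690 and AT5G48540 lowest there and highest on old replicate 3. Their median signal was 122.5, 170.7 and 163.4 on old replicates 1, 2 and 3, and 13.1, 15 and 19.8 on young replicates 1, 2 and 3. The median SD of the log2 signal among old arrays was 0.33 for these 35 genes, against 2.39 for the 7. The groups were divided by these same signals, which favours such a difference. Old replicate 1 was the lowest old array for 23 of the 35 and the highest for 1, AT3G47480. Of all probe sets with at least 80 on every old array, 47.2% were lowest on old replicate 1, against 54.8% of the 42 genes. The 42 include the 7 genes high on that array, none of which was lowest there. Setting those 7 apart raises the share among the 35 by itself, so that share is not compared with the 47.2%.

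The brightest of the 35 was AT1G76960, a gene to which no role is given. It had 1313.5, 1492.9 and 707.9 in old pods and 13, 2.8 and 3.0 in young pods. The lowest old signal was 54.5 times the highest young signal, the widest separation of the 42, and the gene was at least 32.6-fold higher in old pods. AT5G55450 encodes a small protein of the lipid transfer protein type, a family of secreted proteins that bind lipids. It had 663.1, 1167.3 and 1013.7 in old pods and 2.1, 2.6 and 39 in young pods. Young replicate 3 thus stood above the other young arrays and close to the limit of 40, and the fold was 25.7 once its low signals were set to the percentile. No other gene of the 35 had a mean old signal as high as these 2, at 1171 for AT1G76960 and 948 for AT5G55450.

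Among the genes with a role given, the kind with the most genes was kinases and kinase-related receptors, with 5. The share of this kind over all locus-tag probe sets was not counted, so the number does not show that the set is rich in them. Receptor-like kinases carry a signal from outside the cell through the membrane. AT1G66880 was the brightest, with 336.5, 349.4 and 416.6 in old pods and 21.2, 16.2 and 31.8 in young pods, at least 10.7-fold higher. AT5G48540, a secreted relative of cysteine-rich receptor kinases, had 106.3, 202.7 and 301.0 in old pods and 21.0, 15 and 18.0 in young pods. AT5G25440 had 151.5, 181.9 and 146.2 in old pods and 6.0, 24.6 and 28.4 in young pods. AT1G66880 and AT5G25440 were even across the old arrays, whereas AT5G48540 on old replicate 1 was at 0.422 of the mean of the other two. AT1G51890, a kinase with leucine-rich repeats, had 108.4, 144.7 and 135.7 in old pods and 2.8, 11.6 and 12.7 in young pods. AT4G18250 was the dimmest of the 5, with 101.5, 127.9 and 86.0 in old pods and 12.5, 14.8 and 19.8 in young pods.

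Other genes encode a TIR domain protein and lipase-like proteins. Some members of such families act in signalling inside the cell, which was not examined for these genes. AT1G57630 encodes a protein with a TIR domain, the domain found in many intracellular immune receptors of plants, and had 120.1, 81.7 and 175.6 in old pods and 2.6, 2.5 and 3.5 in young pods. Its young signals were among the lowest of the set, so that the lowest old signal was 23.3 times the highest young signal, although the signal on old replicate 2 was barely above the limit of 80. AT3G48080 encodes a lipase-like protein of the EDS1 type, a family that acts with TIR receptors, and had 87.3, 112.4 and 120.3 in old pods and 21.6, 8.7 and 10.8 in young pods. AT5G24210, a lipase-like protein of another family, was far brighter, with 331.0, 461.4 and 533.5 in old pods and 24.5, 26.1 and 19.8 in young pods. It was at least 12.7-fold higher in old pods, against at least 3.09-fold for AT3G48080.

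Calcium carries many such signals, and 2 genes encode proteins with EF-hands, the loops that bind it. AT3G47480 had 201.3, 179.8 and 156.5 in old pods and 13.1, 1.0 and 14.9 in young pods. AT3G01830, of the calmodulin-like family, had 119.2, 163.6 and 228.6 in old pods and 20, 9.7 and 22.7 in young pods. The old arrays ran in opposite orders for the 2 genes, with the highest signal on old replicate 1 for AT3G47480 and on old replicate 3 for AT3G01830. AT1G78410 encodes a protein with a VQ motif, a family that binds WRKY transcription factors. It had 104.5, 112.1 and 163.4 in old pods and 2.9, 2.0 and 2.0 in young pods, the lowest highest young signal of the 42. AT1G10340, an ankyrin repeat protein, had 140.2, 238.4 and 196.5 in old pods and 4.9, 3.5 and 38.8 in young pods, so that young replicate 3 alone was near the limit.

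Proteins that act on walls, on foreign sugars or on other proteins made up another part. AT2G43590, of the chitinase family, whose members cut the chitin of fungal walls, had 152.0, 175.3 and 274.4 in old pods and 4.7, 2.7 and 5.6 in young pods. AT3G16530, a protein like the legume lectins, which bind sugars, had 222.7, 343.7 and 471.3 in old pods and 5.1, 6.0 and 25.2 in young pods. Both were lowest on old replicate 1 and highest on old replicate 3, and were at least 5.68-fold and at least 9.66-fold higher in old pods. Of the 2 proteases, AT3G51330, of the aspartic type, had 122.5, 165.8 and 156.2 in old pods and 4.2, 1.0 and 1.0 in young pods. AT1G24140, a metalloprotease of the matrixin type, had 145.4, 171.1 and 172.7 in old pods and 2.1, 25.2 and 22.4 in young pods. Their old levels were close, while the young level of AT1G24140 differed between young replicate 1 and the other two.

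Enzymes of small-molecule metabolism included the gene with a name in the reference annotation. AT3G13610, F6'H1, encodes the dioxygenase that turns feruloyl-CoA towards scopoletin, a coumarin released or stored by stressed tissue. It had 144.5, 256.6 and 462.8 in old pods and 1.9, 1.3 and 5.1 in young pods, and was at least 7.54-fold higher. Its SD of log2 signal among old arrays, 0.84, was the widest of the 35 genes, and its old replicate 1 was at 0.312 of the highest old array. AT1G33030, of the O-methyltransferase family, had 131.3, 177.4 and 149.4 in old pods and 20.4, 22.4 and 20.8 in young pods. Its young signals were almost level. AT1G64710, an alcohol dehydrogenase-like protein, had 120.2, 116.2 and 177.5 in old pods and 33.3, 32.8 and 19.0 in young pods.

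The set held 2 genes of the strictosidine synthase-like family, named for an alkaloid enzyme of other plants. AT3G51440 had 221.0, 326.1 and 159.1 in old pods and 38.2, 27.0 and 23.6 in young pods. AT1G74010 had 122.5, 164.0 and 139.8 in old pods and 8.0, 20.3 and 5.8 in young pods. AT3G51440 had the higher signals in old and in young pods, and its lowest old signal was 4.16 times its highest young signal, against 6.03 times for AT1G74010. AT3G51660, which resembles the macrophage migration inhibitory factor of animals, had 154.0, 276.8 and 200 in old pods and 22.4, 26 and 17.7 in young pods. AT4G15700, a glutaredoxin of the CC type that occurs only in plants, had 122.3, 123.9 and 121.5 in old pods and 0.7, 36.4 and 21.7 in young pods. It had the most even old signals of the 42, with an SD of 0.014 on the log2 scale, beside young signals that ran from near 0 to near the limit.

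The remaining genes are of other kinds or have no role given. AT3G25610, a P-type ATPase of the family that moves phospholipids across membranes, had 95.6, 159.8 and 171.8 in old pods and 13.5, 6.0 and 6.4 in young pods. AT2G18690, with no role given, had 210.8, 283.1 and 609.4 in old pods and 6.7, 18.5 and 36.5 in young pods. In both, old replicate 1 was the lowest old array, at 0.472 of the mean of the other two for AT2G18690. AT5G45480, of a family known only by a domain of unknown function (DUF594), had old signals of 106.3 to 136.2 and young signals of 12.6 to 24.4. AT2G31990 (exostosin family), AT1G08940 (phosphoglycerate mutase family) and AT3G07600 (heavy-metal-associated domain) had old signals of 81.1 to 140.2 and young signals of 16.4 to 29.4. AT5G05300 had 153.5, 170.7 and 203.4 in old pods and 8.0, 20.1 and 26.1 in young pods. The pseudogene AT3G48650 had 107.1, 104.2 and 154.2 in old pods and 17.4, 7.3 and 27.9 in young pods. AT1G15790 was at 110.9 to 171.6 in old pods and 11.4 to 23.8 in young pods, and AT3G13950 at 94.4 to 133.2 in old pods and 17.3 to 29.6 in young pods.

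The genes were spread over all 5 chromosomes, by their tags: 16 on chromosome 1, 4 on chromosome 2, 12 on chromosome 3, 3 on chromosome 4 and 7 on chromosome 5. Chromosome 1 held 38.1% of them, against 26% of all locus-tag probe sets, and chromosome 4 held 7.14% against 14.4%. No 2 of the 41 genes in the reference annotation lay within 5 genes of each other. Genes that lie beside these 41 were chosen by position and not by signal, so they could be tested. The filter on low signals can still let a gene in through 1 group alone, as it did for AT3G48640 and CHI below. Signals were compared on the log2 scale with limma over 14277 probe sets, of which 3145 (22%) passed an adjusted p of 0.05 by the Benjamini-Hochberg method, 1382 (9.68%) higher and 1763 (12.3%) lower in old pods. Centring each array on its median gave 1890 higher and 1138 lower.

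Of 82 nearest neighbours, 30 had a probe set naming them alone and 17 were bright enough to be tested. Of these 17, 3 rose (17.6%) in old pods and none fell, by limma, against 9.68% higher and 12.3% lower over all probe sets tested. At an unadjusted p under 0.05 the counts were 5 and 1. Of the 3, AT3G48640 passed the filter on signal through its old arrays alone, so it could be tested only by being bright in old pods. Without old replicate 2 none of the 3 passed, and without old replicate 3 only 1 did. The median log2 fold change of the 17 was 0.33, against -0.08 over all probe sets tested. AT3G51450, beside the strictosidine synthase-like gene AT3G51440, had 193.9, 193.9 and 82.6 in old pods and 45.9, 46.9 and 37.8 in young pods, 3.37-fold higher (SE 0.35 on the log2 scale, limma adjusted p = 0.0107, n = 3 arrays per group). Both were lowest on old replicate 3 among the old arrays. Adjacent copies of a family can share probes, which was not examined here.

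AT3G48640, beside the pseudogene AT3G48650, had 55.8, 51.8 and 86.5 in old pods and 2.7, 1.6 and 10.8 in young pods, at least 1.84-fold higher (limma adjusted p = 0.0103). All 3 young signals lay under the percentile, so the gene entered the test through its old arrays alone. Its p-value therefore gives no support for a rise. Leaving out old replicate 2 or 3 ended the call, with a limma adjusted p of up to 0.067. AT3G51670, beside AT3G51660, had 132.9, 282.6 and 311.9 in old pods and 103.7, 110.2 and 105.8 in young pods, 2.13-fold higher (SE 0.32 on the log2 scale, limma adjusted p = 0.0445). That call ended under 7 of 13 alternatives, those without young replicate 1, 2 or 3, without old replicate 2 or 3, with no filter and with no variance trend, with an adjusted p up to 0.149. The neighbour AT1G54870 of AT1G54860 was above the percentile on too few arrays to be tested. It had 185.2, 13.4 and 8.0 in old pods and 25.8, 14.1 and 14.9 in young pods, with old replicate 1 high as for AT1G54860 itself.

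**Figure D5:**
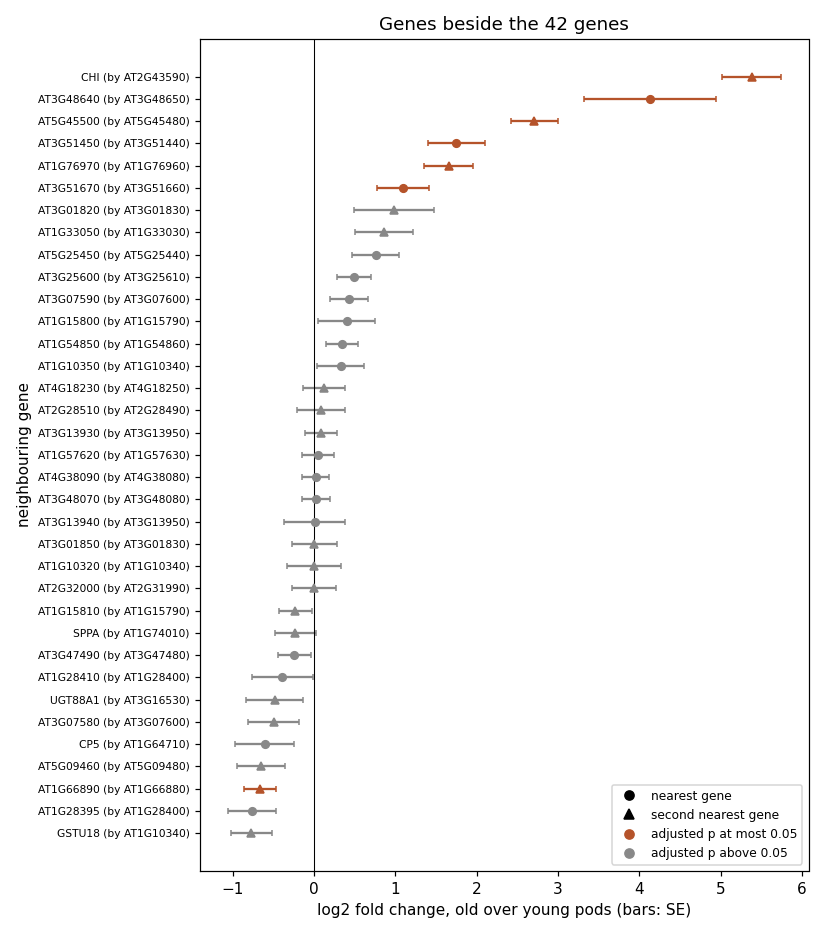
Log2 fold change in old over young pods (bars are SE, n = 3 arrays per group) for the 35 tested genes among the nearest 2 on each side. Neighbours were taken for the 41 of the 42 genes that the reference annotation lists. The gene of the set that each lies beside is in brackets. Brown symbols passed an adjusted p of 0.05: 6 lie to the right of 0, led by CHI, and 1 to the left. Of the 6, AT3G48640 and CHI met the filter on signal only with their old arrays. Over all probe sets tested, 9.68% passed as higher and 12.3% as lower in old pods.

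With the nearest 2 genes on each side, 35 of 164 neighbours were tested, of which 6 rose (17.1%) and 1 fell (2.86%). Over all probe sets tested, 9.68% rose and 12.3% fell. The difference from these shares was not tested, and it rests on few genes. Of the 6, AT3G48640 and CHI could be tested only by being bright in old pods, so they lend the 17.1% no support. The other 3 that rose are CHI, AT5G45500 and AT1G76970, and these 3 calls held under all 13 alternatives. CHI, a chitinase gene, lies 2 genes from the chitinase family gene AT2G43590. It had 1514.3, 1824.7 and 1662.1 in old pods and 27.1, 31.7 and 74.0 in young pods, 41.6-fold higher (SE 0.36 on the log2 scale, limma adjusted p = 0.000268), or 37.4-fold with low signals raised to the percentile. With 2 of its 3 young signals under the percentile, CHI met the filter only with its old arrays. Its p-value therefore gives no support for a rise, as for AT3G48640. AT2G43580, which lies between CHI and AT2G43590, was dim, with 30.8, 21.3 and 23.2 in old pods and 23.7, 1.1 and 2.6 in young pods. On the far side AT2G43600 was at 1.0 to 1.4 in old pods and 0.9 to 1.8 in young pods. The 2 bright genes of this run were thus separated by 1 that stayed under the percentile on every array but was not tested.

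AT5G45500, near the DUF594 gene AT5G45480, had 471.6, 888.0 and 666.5 in old pods and 73.9, 115.8 and 117.2 in young pods, 6.53-fold higher (limma adjusted p = 0.00102, n = 3 arrays per group). AT1G76970, near AT1G76960, had 188.1, 191.2 and 202.1 in old pods and 95.7, 59.8 and 40.5 in young pods, 3.15-fold higher (limma adjusted p = 0.00783). The 1 that fell, AT1G66890 near the kinase gene AT1G66880, had 49.5, 49.0 and 45.9 in old pods and 71.5, 76.6 and 79.9 in young pods, with a log2 fold change of -0.66 (SE 0.19, limma adjusted p = 0.0463). That call ended under 11 of 13 alternatives. Near the glutaredoxin gene AT4G15700, AT4G15690 was at 1.7, 3.8 and 20.6 in old pods and 0.8 to 1.3 in young pods, and AT4G15680 at 23.2, 24.1 and 39.7 in old pods and 6.3 to 20.6 in young pods, neither bright enough to be tested.

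Among probe sets naming a gene with a symbol, 8 of 1580 (0.506%) met the same limits on signal. Besides PAP85 they were AtLEA4-1, CYP71B23, CYP71B24, CCOAMT, SBT3.3, UGT87A2 and WRKY47. AtLEA4-1, of the late embryogenesis abundant proteins that protect drying seeds, had 447.8, 190.1 and 107.0 in old pods and 21.9, 34.1 and 9.0 in young pods. Like the 7 genes above, it was highest on old replicate 1. SBT3.3, a subtilisin-like protease, had 101.3, 243.9 and 158.7 in old pods and 21.3, 24.7 and 26.6 in young pods. WRKY47, a transcription factor of the WRKY family, had 98.8, 123.9 and 120.6 in old pods and 23.6, 29.8 and 25.7 in young pods. Old replicate 1 was the lowest old array for both. It was also the lowest for CCOAMT, CYP71B23 and CYP71B24, and not for PAP85, AtLEA4-1 or UGT87A2. Of all probe sets with at least 80 on every old array, 47.2% were lowest on old replicate 1.

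Control transcripts gave a reading of RNA quality. On every array the 3 prime signal was well above the 5 prime signal for each transcript, at log2 ratios of 1.24 to 3.98. All arrays thus had a strong 3 prime bias. The log2 ratio of the 3 prime to the 5 prime probe set of actin was 3.40 to 3.79 on old arrays and 3.05 to 3.19 on young arrays. For GAPDH it was 1.91 to 3.75 on old arrays and 2.56 to 3.98 on young arrays, and for ubiquitin 1.24 to 2.59 on old arrays and 1.74 to 2.27 on young arrays. The groups overlapped for GAPDH and ubiquitin and not for actin. The part of RNA quality in the signals above was not tested.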

How the data were processed

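Signals were measured on 6 Affymetrix ATH1 arrays. The deposited values are intensities on a linear scale, 1 per probe set, and the submitters' processing notes name MAS5 with no version. Detection calls were not used here. After trimming 2% from each end, the mean was about 100 on every array, so arrays had been scaled before deposit. A change running through most transcripts would not be visible. The number of arrays limits the precision.

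Of 22810 probe sets, 64 controls were left out. Genes were named from the platform annotation and matched by gene number to the TAIR10.1 table. The 42 genes, the lists and the tests were chosen with earlier results of these data known. Signals under 0.1 were set to 0.1 and taken as log2. The test took probe sets that exceeded the 40th percentile of signal on 3 or more arrays, and used limma 3.58.1 in R 4.3.3 (lmFit, eBayes with trend), with the Benjamini-Hochberg adjustment over all tested, two-sided. Neighbours are the nearest annotated genes on each side in that table.

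Genes described in full were the 12 with the widest ratio, the 6 brightest and the 6 most uneven among old arrays, the 3 nearest each limit, up to 4 of a kind with at least 3 genes, neighbours past the threshold, and genes that share a protein family or lie within 5 genes of each other. The family part could not be applied without sequences, and no genes lay that close. The kinds come from general background written after the signals had been seen. Other genes are given so that every gene has its values. For replicate numbers 1, 2 and 3, old and young arrays deviated together from their groups (r of 0.286, 0.113 and 0.119). These exceed the 0.1 taken as pairing, so the block is reported. Old replicate 3 with young replicate 2 (0.187) and old replicate 2 with young replicate 3 (0.114) did so too, so replicates 2 and 3 are not shown to pair by number. The labels do not say what the numbers share. Protein and promoter sequences were not analysed here, so protein families could not be compared.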

Additional observations from a re-analysis of the deposited data

How the results depend on the processing

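Leaving out 1 array at a time gave 1736 to 3602 probe sets past the threshold, against 3145, and 720 to 1473 higher in old pods, against 1382. Among old arrays, the count fell by over 1.5 times when replicate 2 (1736) or replicate 3 (2047) was left out, and among young arrays when replicate 2 (1812) or replicate 3 (1975) was. Among nearest neighbours it gave 0 to 3 higher and 0 to 1 lower, against 3 and 0. With replicates 2 and 3 only, or no filter, 1 neighbour was lower, and the nearest 2 genes on each side gave 6 higher. With the replicate number as a block, 3480 passed, 1516 of them higher (43.6%), with 3 neighbours higher and 0 lower; of the neighbours named, the block ended the call of AT1G66890 alone. Median centring moved the share of calls that were higher to 62.4%, against 43.9%, and the median log2 fold change of all probe sets to 0.18, against -0.08. The median log2 difference of the 42 genes was 4.02, and 2.31 with signals raised to the percentile, as low young signals are then cut off; leaving out arrays gave 3.59 to 4.36. The number of genes within the limits was 45 to 51 without an array, where leaving out an array can only add genes, and 34 or 35 under each of 3 stricter limits, which can only remove them. It was 54 after quantile normalization and after median centring, and these included all 42. The planned comparisons of protein families, protein signatures and promoter motifs, with their alternatives, were not run for want of sequences.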

Other observations

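Probe sets with no gene or several genes in the annotation also met the limits on signal, 51 in number. Of these, 16 (31.4%) had a signal on old replicate 1 at least 2 times that of the higher of the other two old arrays, against 7 of the 42 genes (16.7%). These probe sets carry no name here, and the difference was not tested. The mirrored limits, low on every old array and high on every young array, were met by 49 probe sets named by locus tag, against 42 for the limits used here.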
